A study of Mus musculus with 8 samples.

Results

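Cecal epithelial cells of antibiotic-treated mice in the group named Abx_4D were compared with those of control mice (Ctrl), as sums of transcript counts over 4 numbered samples in each group. Members were all cecal cells of those 8 samples with at least 500 transcripts (unique molecules), which kept 2841 of the 6773 cecal cells and of the 15916 cells of the whole series. Ctrl samples 1 to 4 held 191, 285, 453 and 401 cells (1330 in all), and Abx_4D samples 1 to 4 held 298, 191, 465 and 557 (1511 in all). The series measured single-cell RNA from sorted epithelium of the mouse colon and cecum in control, antibiotic-treated and germ-free animals, and its title concerns microbial nicotinic acid, the identity of colon regions and susceptibility to injury. All groups shared 1 sort: cells positive for EPCAM and negative for CD45, with CD44-positive and CD44-negative cells loaded at 1:1. The labels say that cells were pooled by condition before that sort. No label names separate animals for the numbered samples, so every p-value reflects the spread among samples that may be technical repeats. The labels used here do not give strain, age, the drugs or the meaning of 4D, and the names are kept as deposited.

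Epithelial cells of the large intestine renew from stem cells at the crypt base, divide, and mature into absorptive cells at the surface and into secretory cells such as goblet, tuft and enteroendocrine cells. The cecum holds a dense bacterial community, and its epithelium is known to answer bacteria with secreted antibacterial lectins, oxidases that make hydrogen peroxide or nitric oxide, and sugars such as fucose placed on surface proteins. Much of that answer is known to run through cytokines of immune cells and the transcription factor STAT3.

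Sample totals ran from 2573787 to 7489436 transcripts in Ctrl and from 1821737 to 10009028 in Abx_4D. Abx_4D 2 stood apart. Its cells had a median of 6254 transcripts against 9863 to 16338 in the other 7, a median of 0.565% mitochondrial transcripts against 0.221 to 0.485%, and 1 cell gave 9.87% of its total. No full barcode occurred more than once, and 141 of the 6629 combinations of wells used by cecal cells recurred in another sublibrary. The summed level of 16 immune markers ran from 14.8 to 94.4 CPM (counts scaled to a total of 1000000 per sample) in Ctrl and from 2.20 to 107.8 in Abx_4D, with Nkg7 at 0 throughout. That of 11 stroma and endothelium markers was 7.88 to 13.3 and 3.90 to 9.09, with Col3a1, Col1a2 and Cdh5 at 0, and that of 11 Paneth and small intestine markers was 6.22 to 9.57 and 6.62 to 22.3, with Defa17 and Mptx2 at 0. Goblet markers summed to 9918 CPM in Ctrl 2 and to 1338 to 2584 CPM in the other 7 samples. The part of these levels in the results for all cells was not tested.

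In all cells together, 8 genes were higher and 58 lower in Abx_4D at an adjusted p under 0.05 (edgeR quasi-likelihood test, Benjamini-Hochberg over 13376 genes, n = 4 and 4, with the spread estimated over all 16 cecal samples of 4 groups). That is 0.493% of the genes tested, 0.0598% higher and 0.434% lower. Among the falls were 2 antibacterial lectins, an oxidase, enzymes that finish surface sugars and gasdermins, and the rises were led by metallothioneins and the transferrin receptor. The median log2 change of all genes tested was 0.03. Whatever their p-value, 325 of the 13376 genes had every Abx_4D sample above every Ctrl sample, and 334 had every one below. Leaving out Abx_4D 2 gave 44 called genes, and leaving out Abx_4D 3, Abx_4D 4, Ctrl 3 or Ctrl 4 gave 15, 23, 42 and 39. In a sum over cells, fewer cells of a type and less RNA per cell cannot be told apart. DESeq2 called 50 higher and 170 lower. Called genes are also counted below in lists, which were chosen with earlier results of these data known. Such a count is therefore not a test of a list.

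The secreted antibacterial proteins Reg3b and Reg3g are lectins that bind bacterial cell walls and hold bacteria off the surface. Reg3b stood at 76.9, 79.6, 42.9 and 243 CPM in Ctrl 1 to 4 and at 20.96, 1.098, 1.698 and 0.452 CPM in Abx_4D 1 to 4. Every Abx_4D sample was below every Ctrl sample, but Abx_4D 1 was far above the other 3. Reg3b fell by 4.17 ± 0.83, adjusted p = 0.027. Reg3g stood at 34.97, 57.4, 32.8 and 116 CPM in Ctrl and 10.48, 3.84, 2.398 and 3.31 CPM in Abx_4D, again without overlap and with Abx_4D 1 the highest of its group. It fell by 3.62 ± 0.48, adjusted p = 0.0013. The 2 genes are close relatives, and the sources do not say to which of them a shared read was assigned. The call of Reg3b ended without Ctrl 4, Abx_4D 2, Abx_4D 3 or Abx_4D 4 (adjusted p of at most 0.125), and its change ran from -6.57 without Abx_4D 1 to -3.42 without Ctrl 4, whereas the call of Reg3g held whichever sample was left out. Of the 24 antibacterial proteins listed, 11 passed the filter on low counts, and Reg3b and Reg3g were the 2 called (median change of the 11, -0.97). Lypd8, which immobilises flagellated bacteria, had 1128 ± 683 CPM in Ctrl and 825 ± 229.7 in Abx_4D (SD, n = 4; log2 change -0.45), with overlapping groups.

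Socs3, the feedback inhibitor that STAT3 induces, also fell in all cells, from 16.3, 14.8, 6.83 and 12.6 CPM in Ctrl 1 to 4 to 2.17, 4.94, 3.497 and 3.61 CPM in Abx_4D 1 to 4. The groups did not overlap, and the change was -1.86 (adjusted p = 0.0087; 0.056 without Abx_4D 3). Stat3 itself, chosen after its values were seen, fell by 0.75 ± 0.14 with adjusted p = 0.024, from 143 ± 3.86 to 85.1 ± 10.49 CPM. To show what lies before these starts, the 250 bases upstream of the RefSeq starts of Reg3b (chr6:78370635-78370884, plus strand) and Socs3 (chr11:117969367-117969616, minus strand; both GRCm38.p6) were searched on both strands for the STAT half-site pair TTCNNNGAA. Each held 1 match, given in capitals, as did 7.02% of the 32851 windows of the same length in that table.
Reg3b: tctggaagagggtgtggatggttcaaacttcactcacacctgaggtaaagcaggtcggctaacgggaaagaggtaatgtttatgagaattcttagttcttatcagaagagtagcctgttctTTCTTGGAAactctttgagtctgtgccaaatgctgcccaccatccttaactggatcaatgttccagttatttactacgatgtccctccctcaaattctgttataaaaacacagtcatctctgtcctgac
Socs3: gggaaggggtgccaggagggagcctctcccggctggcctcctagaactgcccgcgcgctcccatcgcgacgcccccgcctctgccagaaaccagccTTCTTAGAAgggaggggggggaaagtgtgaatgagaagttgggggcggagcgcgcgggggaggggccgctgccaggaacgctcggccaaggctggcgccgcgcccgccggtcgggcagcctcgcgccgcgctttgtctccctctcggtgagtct
The windows of Reg3g, Plet1, Duox2 and Il18 held no match of these letters, and of 3 starts listed for B3galt5, 1 held a match.

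**Figure D1:**
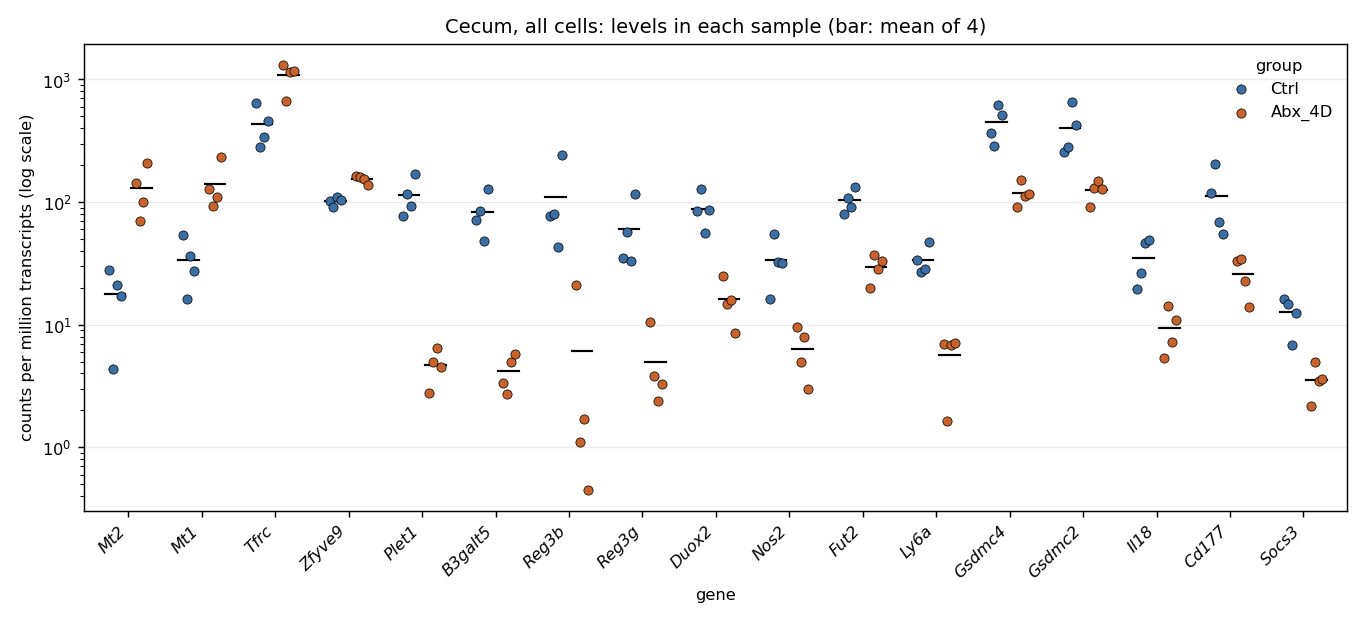
Level of 17 genes in each sample, all cells together (vertical axis, CPM on a log scale; 1 point per sample, blue for Ctrl and orange for Abx_4D, bar for the mean of 4). Mt2, Mt1, Tfrc and Zfyve9 are higher in every Abx_4D sample, the other 13 genes are lower in every one, and Reg3b in Abx_4D 1 (21.0 CPM) lies apart from the other Abx_4D samples. The genes drawn were picked from those named for changes in all cells.

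An epithelial oxidase, Duox2, and a nitric oxide synthase, Nos2, fell with them. Duox2, which makes hydrogen peroxide at the surface, stood at 83.9, 128, 55.9 and 85.99 CPM in Ctrl 1 to 4 and 24.9, 14.8, 15.99 and 8.58 in Abx_4D 1 to 4, and fell by 2.46 ± 0.38, adjusted p = 0.0051. Nos2, the inducible nitric oxide synthase, stood at 16.3, 54.8, 32.3 and 31.6 CPM and 9.49, 4.94, 7.99 and 3.01 CPM, and fell by 2.39 ± 0.42, adjusted p = 0.011. Neither gene's groups overlapped, and the call of Nos2 ended without Abx_4D 3 or Abx_4D 4 (adjusted p of 0.056 and 0.053). Of 8 genes listed for this group, 7 were tested and these 2 were called, with a median change of -0.99. Duoxa2, the maturation factor of Duox2, had a change of -2.63 (adjusted p = 0.056), and Nox1, the superoxide-making oxidase of crypt cells, one of -0.49 (adjusted p = 0.68).

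Enzymes that finish surface sugars made the next group. B3galt5, which adds galactose to chain ends, stood at 71.1, 85.3, 47.8 and 129 CPM in Ctrl 1 to 4 and 3.36, 2.75, 4.995 and 5.72 CPM in Abx_4D 1 to 4. It fell by 4.22 ± 0.40, adjusted p = 3.1e-05. Fut2, the fucosyltransferase that places fucose on secreted and surface glycans, went from 80.4, 109, 91.9 and 132 CPM to 19.97, 37.3, 28.5 and 33.1 CPM, and fell by 1.82 ± 0.21, adjusted p = 0.00037. For both genes the lowest Ctrl sample was above the highest Abx_4D sample, and both calls held whichever sample was left out. B3gnt6, which makes a mucin core, was also called (-3.91, 0.032) but rested on 83 and 6 counts and on Ctrl 2, at 1.55, 11.96, 2.22 and 1.47 CPM in Ctrl 1 to 4. Its call ended without Ctrl 2 or without any 1 of the Abx_4D samples (at most 0.160). Of 28 glycan-building enzymes tested, 3 were lower and none higher, with a median change of -0.25.

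Plet1 and Ly6a, 2 surface proteins from the list of regeneration genes, fell too. Plet1, a membrane-anchored protein, stood at 76.5, 116, 92.9 and 169.7 CPM in Ctrl 1 to 4 and 2.77, 4.94, 6.49 and 4.52 CPM in Abx_4D 1 to 4. It fell by 4.58 ± 0.40, adjusted p = 1.8e-05, the largest fall among the genes named. The gene table also lists Plet1os, an opposite-strand gene, and whether counting used strand is not given. Ly6a, a surface antigen raised in regenerating epithelium, went from 33.4, 26.8, 28.5 and 47.1 CPM to 6.92, 1.65, 6.89 and 7.08 CPM and fell by 2.48 ± 0.32, adjusted p = 0.0013. Of 18 regeneration genes tested, these were the 2 called, with a median change of -0.38. In noncycling crypt cells Plet1 had a change of -2.49 (adjusted p = 0.104), and in mature absorptive cells 2 of 13 regeneration genes tested were lower and 1, Anxa1, higher (2.10).

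Gasdermins and inflammasome genes had 5 of 19 called, all lower, with a median change of -0.11. Gsdmc4, one of the epithelial pore-forming gasdermins, stood at 366, 289, 619.7 and 509 CPM in Ctrl 1 to 4 and 91.1, 151, 113 and 116 CPM in Abx_4D 1 to 4, and fell by 1.93 ± 0.26, adjusted p = 0.0013. Gsdmc2 fell by 1.70 ± 0.25 (adjusted p = 0.0031) and Gsdmc3 fell by 1.19 ± 0.23 (adjusted p = 0.026), and the call of Gsdmc3 ended without Ctrl 3, Ctrl 4, Abx_4D 1, Abx_4D 3 or Abx_4D 4 (at most 0.121). The 3 are near-identical copies, so their separate values are uncertain. Il18, an epithelial cytokine that caspases release, stood at 19.4, 26.5, 46.3 and 48.7 CPM and 5.34, 14.3, 7.29 and 10.99 CPM and fell by 1.99 ± 0.33, adjusted p = 0.0087 (0.063 without Abx_4D 3). The inflammatory caspase Casp4, the fifth member, fell by 0.83 ± 0.18, adjusted p = 0.042.

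Other falls in all cells were those of Cd177, a surface protein (-2.13, adjusted p = 0.019), of the secreted phospholipase Pla2g5 (-2.92, 0.0092), of the secreted protease inhibitor-like Wfdc2 (-2.10, 0.01) and of the adaptor Fyb2 (-2.25, 0.023). Their groups did not overlap. Adjusted p exceeded 0.05 without Abx_4D 3 for each of the 4 (0.094, 0.063, 0.063 and 0.099). It did so for Cd177 also without Ctrl 2 or Abx_4D 4, for Wfdc2 without Abx_4D 4, and for Fyb2 without any 1 sample other than Ctrl 1 and Ctrl 2.

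Metallothioneins bind zinc and copper and are induced when metal rises. Mt2 stood at 27.97, 4.35, 21.2 and 17.1 CPM in Ctrl 1 to 4 and 142, 69.7, 100.4 and 207 CPM in Abx_4D 1 to 4. It rose by 2.92 ± 0.42, adjusted p = 0.003, and that call held whichever sample was left out. Mt1 went from 54.4, 16.1, 36.04 and 27.6 CPM to 127, 92.2, 111 and 235 CPM and rose by 2.11 ± 0.40, adjusted p = 0.023, a call that ended without Ctrl 2, 3 or 4 or Abx_4D 3 or 4 (adjusted p of at most 0.083) and without the mature absorptive cells. Tfrc, the transferrin receptor that takes up iron, went from 648, 283, 338 and 462 CPM to 1308, 672, 1159 and 1175 CPM and rose by 1.32 ± 0.24, adjusted p = 0.017. Its call ended without Ctrl 3, Abx_4D 1, Abx_4D 3 or Abx_4D 4 (at most 0.073). For all 3 genes every Abx_4D sample lay above every Ctrl sample. These 3 were the calls among 18 genes of zinc and iron tested (median 0.01, or -0.02 with scaling by trimmed means, TMM), and the zinc exporter Slc30a1 (-0.21), the metal-sensing factor Mtf1 (-0.02) and the ferritin chain Fth1 (0.05) had adjusted p-values of 0.85, 0.99 and 0.99.

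Since Mt1 and Mt2 are neighbours that moved together, their upstream windows are shown, with the core of the metal response element (TGCACNC or TGCGCNC, both strands) in capitals. The 250 bases before the RefSeq start of Mt1 (chr8:94178839-94179088, plus strand, GRCm38.p6) held 1 match and those of Mt2 (chr8:94172368-94172617, plus strand) held 3. At least 1 match occurred in 21.4% of the 32851 windows and at least 3 in 1.26%. Of 2 starts listed for Tfrc, 1 held 2 matches, and the window of Slc30a1, which was not called, held 1.
Mt1: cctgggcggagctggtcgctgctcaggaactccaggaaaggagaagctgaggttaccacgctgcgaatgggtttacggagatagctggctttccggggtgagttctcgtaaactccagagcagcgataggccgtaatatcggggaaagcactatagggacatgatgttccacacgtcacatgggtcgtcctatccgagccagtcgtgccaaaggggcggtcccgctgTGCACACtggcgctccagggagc
Mt2: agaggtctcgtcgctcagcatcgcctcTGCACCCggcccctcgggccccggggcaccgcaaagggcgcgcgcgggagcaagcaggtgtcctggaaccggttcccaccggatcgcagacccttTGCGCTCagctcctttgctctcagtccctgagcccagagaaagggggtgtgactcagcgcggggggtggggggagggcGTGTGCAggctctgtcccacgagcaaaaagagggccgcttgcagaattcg

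Genes were then compared within cell classes set by marker levels, using samples with at least 20 cells of a class. Mature absorptive and goblet cells left the markers of their own gate out of the tests. Noncycling crypt and cycling cells left out those of the stem, S phase and G2 and mitosis gates. Ungated cells left out every marker, and in the other classes markers of other gates stayed in. Mature absorptive cells (Krt20, Slc26a3 and 7 other markers) numbered 308 in Ctrl and 229 in Abx_4D, noncycling crypt cells 307 and 446, cycling cells 271 and 303, and goblet cells 83 and 104. Cells that passed no gate numbered 315 and 408. Noncycling crypt cells were those past the stem gate and no other. Their S phase markers still summed to 432 to 571 CPM in Ctrl and 425 to 529 in Abx_4D. In cycling cells those sums were 1037 to 1757 and 1031 to 1518 CPM. Noncycling crypt cells also had fewer transcripts (median 10517 in Ctrl and 11356.5 in Abx_4D) than cycling cells (17363 and 18317). Of all 2841 cells, 1 in Ctrl and 4 in Abx_4D passed the gates of 2 or more differentiated classes. Within 0.2 of the threshold of its own score lay 59 of the 537 mature absorptive cells. Just below it lay 112 cells that were not in that class, whether in another class or in none.

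In noncycling crypt cells, 9 genes were higher and 37 lower in Abx_4D (n = 4 and 4; 0.443% of 10373 genes, 0.0868% higher and 0.357% lower). DESeq2 called 14 higher and 141 lower. Whatever their p-value, 338 of the 10373 genes had every Abx_4D sample above every Ctrl sample, and 260 had every one below. Reg3g stood at 35.96, 47.3, 12.96 and 39 CPM in Ctrl 1 to 4 and 1.63, 8.99, 3.08 and 5.06 CPM in Abx_4D 1 to 4, and fell by 3.16 ± 0.53, adjusted p = 0.0055. Cd177 went from 188, 319, 182 and 134 CPM to 47.2, 71.9, 26.4 and 15.9 CPM and fell by 2.51 ± 0.33, adjusted p = 0.001. The groups of both genes were apart, and both calls held whichever sample was left out. Casp4 fell by 1.28 ± 0.18 (0.0018) and Nos2 fell by 2.23 ± 0.34 (0.0019), also in every arrangement with 1 sample left out. Prom1, a membrane protein of stem and progenitor cells, stood at 451, 518, 504 and 483 CPM and 318, 324, 203 and 214 CPM and fell by 0.90 ± 0.15, adjusted p = 0.0055.

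Rises in noncycling crypt cells included Tfrc (622, 327, 602 and 586 against 1488, 841, 1562 and 1500.2 CPM; change 1.34, adjusted p = 0.0019) and Mt2 (2.51, 0.0019). Egfr, the receptor for epidermal growth factor, stood at 186, 179, 184 and 179 CPM in Ctrl 1 to 4 and 356, 306, 312 and 252 CPM in Abx_4D 1 to 4. Its 4 control values lay close together and below all 4 others, and it rose by 0.75 ± 0.13, adjusted p = 0.0075. The aldo-keto reductase Akr1c14 rose by 1.60 ± 0.33, adjusted p = 0.029, a call that ended without Ctrl 1, 2 or 4 or Abx_4D 2 or 4 (at most 0.103). With a gate 1.5 times as strict the count of called genes was 17, and the calls of Egfr and Nos2 were among those lost. The count also fell to 22 to 30 without Ctrl 1, Ctrl 4, Abx_4D 1, Abx_4D 3 or Abx_4D 4.

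In cycling cells, 4 genes were higher and 28 lower (n = 4 and 4; 0.305% of 10502 genes, 0.0381% higher and 0.267% lower). Groups were apart, called or not, for 159 of the 10502 genes with Abx_4D above and 239 with Abx_4D below. Reg3b stood at 49.1, 25.9, 105 and 228 CPM in Ctrl 1 to 4 and had 0 counts in all 4 Abx_4D samples. In counts pooled over samples, against a floor of 3 counts over the Abx_4D group, Reg3b was at least 266-fold lower (719 counts of 5689421 against 0 of 6321173; counting error only). The pool weights samples by depth, and Ctrl 4, with the highest level, was also the deepest Ctrl sample (2318298 transcripts). That ratio is therefore not a lower bound for each sample. The floor equals 0.475 CPM, against 25.9 CPM in Ctrl 2. Reg3g went from 48.2, 38.03, 81.9 and 117 CPM to 4.41, 0, 2.74 and 1.19 CPM and fell by 4.81 ± 0.46, adjusted p = 8.5e-06. Nos2 fell by 3.75 ± 0.56 (0.0014), Duox2 fell by 3.21 ± 0.40 (0.00018) and Plet1 fell by 3.74 ± 0.45 (0.00013). Prom1 fell by 1.03 ± 0.16, from 362, 415, 362 and 341 CPM to 212, 206, 167 and 147 CPM, adjusted p = 0.0026, with groups apart. The calls of these 6 genes held whichever sample was left out. With the stricter gate, which called 18 genes from 4 Ctrl and 3 Abx_4D samples, that of Nos2 ended.

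The 4 rises in cycling cells were Mt2 (2.82, adjusted p = 0.00059), Tfrc (1.24, 0.0066), Pcdh17 and Hmgcs1. Pcdh17, a cell adhesion protein of the protocadherin family, stood at 29.6, 31.2, 39.9 and 29.8 CPM in Ctrl 1 to 4 and 99.97, 104, 80.1 and 85.3 CPM in Abx_4D 1 to 4, and rose by 1.49 ± 0.19, adjusted p = 0.00022. The groups were apart, and the call held whichever sample was left out but not with the stricter gate (4 Ctrl and 3 Abx_4D samples). Hmgcs1, an early enzyme of cholesterol synthesis, rose by 0.83 ± 0.17, adjusted p = 0.036, and lost its call without Ctrl 1, 2 or 3 or Abx_4D 1 or 3 (at most 0.1795). It was the 1 gene called of 25 in that pathway, whose median change was 0.33 against 0.02 over all genes tested.

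Cells outside every gate repeated part of this, with 28 genes called of 9947 (0.281%), 3 higher and 25 lower. Groups were apart, called or not, for 223 of the 9947 genes with Abx_4D above and 179 with Abx_4D below. Gsdmc4 fell by 1.93 ± 0.21 (1.6e-05), Fut2 fell by 2.51 ± 0.36 (0.0011) and Wfdc2 fell by 3.10 ± 0.49 (0.003), all with groups apart. Reg3b in these cells was 223, 208, 33.5 and 507 CPM in Ctrl 1 to 4 and 45.6, 2.56, 1.49 and 0 CPM in Abx_4D 1 to 4, so the groups overlapped at Abx_4D 1, and its change of -4.36 (adjusted p = 0.0061) missed the threshold without Ctrl 4 (0.059). Across the mature absorptive, noncycling crypt, cycling and ungated cells, Mt2 and Tfrc were called higher in all 4, and Duox2 and Gsdmc4 were among the genes called lower in all 4. The call of Gsdmc4 ended in noncycling crypt cells without Ctrl 2, Ctrl 3, Abx_4D 1, Abx_4D 3 or Abx_4D 4 (at most 0.096), in cycling cells without any 1 sample other than Ctrl 2 and Abx_4D 4 (at most 0.137), and in both classes with the stricter gate. That of Duox2 ended outside every gate without Ctrl 2, Abx_4D 1, Abx_4D 3 or Abx_4D 4 (at most 0.211) and with DESeq2, and in noncycling crypt cells with the stricter gate.

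**Figure D2:**
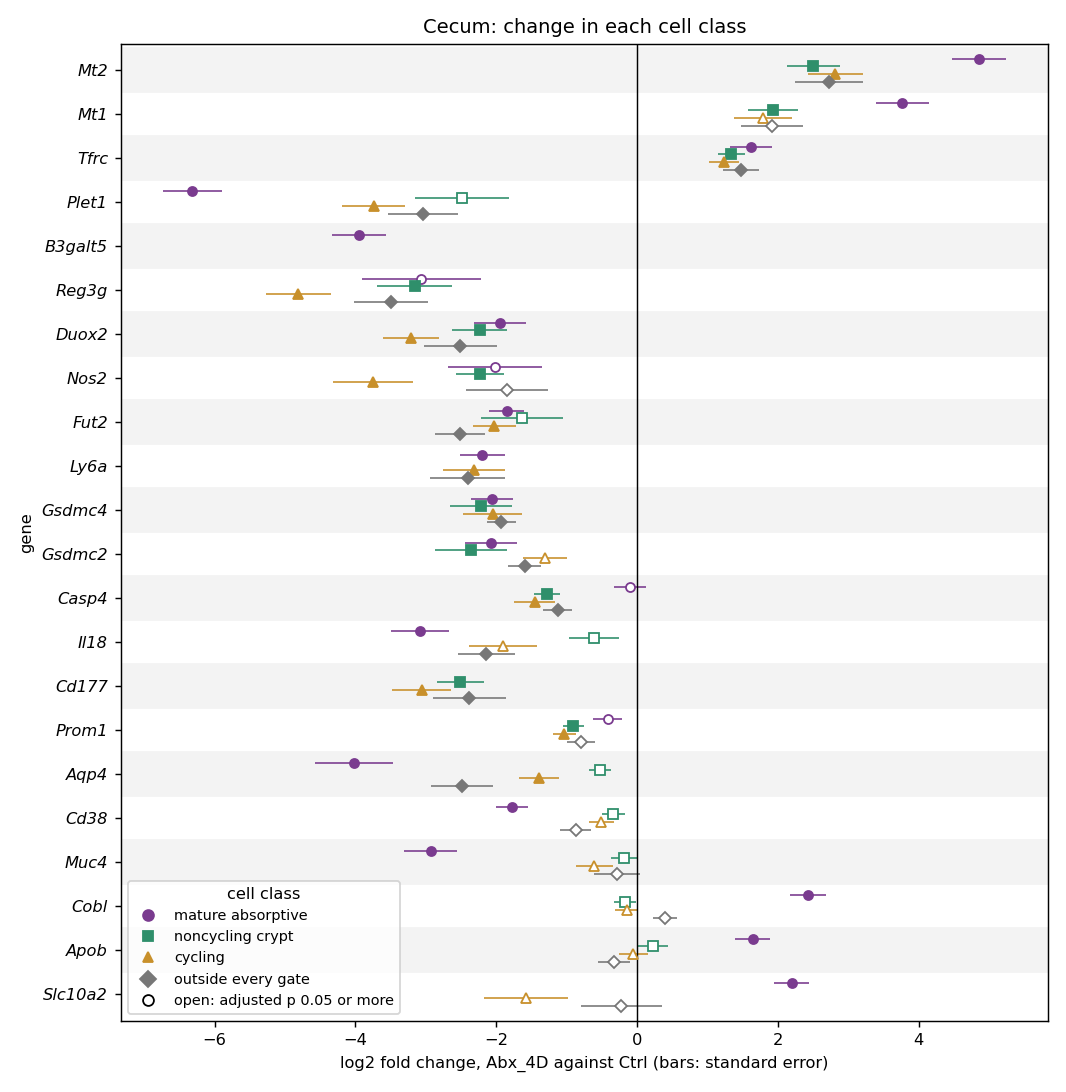
Log2 fold change of 22 genes, Abx_4D against Ctrl, in 4 cell classes (horizontal axis; bars are standard errors; filled symbols have an adjusted p under 0.05, and a gene without a symbol was not tested in that class). Mt2 and Tfrc lie right of 0 in all 4 classes, Duox2 and Gsdmc4 left of 0 in all 4, and Cobl, Apob and Slc10a2 have filled symbols in mature absorptive cells alone.

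Mature absorptive cells gave the longest list, 188 higher and 142 lower genes (Ctrl 2, 3 and 4 against Abx_4D 1, 3 and 4; 3.28% of 10047 genes, 1.87% higher and 1.41% lower). With 3 samples a group, 1541 of the 10047 genes had every Abx_4D value above every Ctrl value and 695 had every one below. Here the median change of all genes tested was 0.15, so changes are to be read against it. TMM scaling lowered that median to 0.03 and gave 135 higher and 241 lower genes, and DESeq2 gave 199 and 350. Without Ctrl 3 the test called 150 genes and without Ctrl 4 it called 180. Immune markers in these cells summed to 1.65 to 2.41 CPM in Ctrl and 0.458 to 5.33 CPM in Abx_4D, with 9 of 16 at 0, Ptprc and Cd3e among them. Of the 11 Paneth and small intestine markers, 7 were at 0, and their sum was 21.5 to 24.1 CPM in Ctrl and 83.5, 31.6 and 19.9 CPM in Abx_4D 1, 3 and 4. The small intestinal disaccharidase Sis had 62.2 CPM in Abx_4D 1 and 0 in the other 5 samples, and the ileal bile acid carrier Fabp6 had 167 CPM there and at most 0.472 elsewhere. Cycle markers were also higher, at 62.7 to 91.99 CPM in Ctrl and 109.5 to 120.9 CPM in Abx_4D for 12 S phase markers and at 27.9 to 96.5 and 108.2 to 271.1 CPM for 12 markers of G2 and mitosis, none of them at 0 throughout. Of 21 cell cycle genes tested none was called, with a median of 1.28. The part of these markers in the results was not tested.

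Bile acid carriers, a lipoprotein scaffold and a retinol carrier were among the rises. Slc10a2, the sodium-driven bile acid importer of the brush border, stood at 86.8, 81.2 and 116 CPM in Ctrl 2, 3 and 4 and 396, 407 and 511 CPM in Abx_4D 1, 3 and 4. It rose by 2.19 ± 0.25, adjusted p = 3.2e-05, with groups far apart, and by 2.26 without Abx_4D 1. The basolateral bile acid exporter subunits Slc51b and Slc51a rose by 0.96 ± 0.23 (0.025) and 0.83 ± 0.22 (0.037), calls that each ended without cells over 50000 transcripts. That of Slc51b also ended without Ctrl 2, Ctrl 3, Abx_4D 3 or Abx_4D 4 (at most 0.179), and that of Slc51a without Ctrl 2, Ctrl 3, Ctrl 4, Abx_4D 1 or Abx_4D 3 (at most 0.211) and with TMM scaling. The bile acid receptor Nr1h4 had a change of -0.03. In all, 3 of 8 bile acid genes tested were higher, with a median of 0.51, but without Abx_4D 1 the calls were 2 of 9 and the median was -0.06.

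Apob, the scaffold of lipoprotein particles, went from 113, 184 and 210.0 CPM to 631, 585 and 416 CPM and rose by 1.64 ± 0.25, adjusted p = 0.00068 (1.53 without Abx_4D 1). Rbp2, which carries retinol in absorptive cells, went from 9.65, 8.03 and 9.49 CPM to 31.99, 41.2 and 62.98 CPM and rose by 2.38 ± 0.48, adjusted p = 0.0067 (0.059 without Ctrl 3). The groups of both genes were apart. They were the 2 called of 13 lipid packaging genes, whose median was 0.42, or 0.08 over 14 genes without Abx_4D 1.

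Cobl, Slc9a3 and several detoxifying enzymes rose as well. Cobl, which nucleates the actin of microvilli, stood at 60.3, 102 and 102 CPM in Ctrl 2, 3 and 4 and 618, 408 and 462 CPM in Abx_4D 1, 3 and 4, and rose by 2.43 ± 0.26, adjusted p = 1.3e-05. Slc9a3, the sodium-proton exchanger that drives salt absorption, went from 263, 108 and 134 CPM to 602, 580.2 and 369.6 CPM and rose by 1.69 ± 0.27, adjusted p = 0.0012. Aldh1a1, which makes retinoic acid, rose by 1.67 ± 0.20 (9.1e-05), and Cyp4f14, a fatty acid hydroxylase, rose by 1.91 ± 0.24 (0.0001). These 4 calls held whichever sample was left out. Of 38 P450 and conjugating enzymes tested, 6 were higher and 1, the carboxylesterase Ces2a, lower (-1.30, 0.031; groups overlapping, and lost without any 1 sample other than Ctrl 2), with a median of 0.37. Of 21 brush border genes, Cobl and the peptidase Enpep (2.67, 0.0041; groups overlapping, 0.052 without Ctrl 3) were called, both higher.

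Metallothioneins and the transferrin receptor rose in these cells too, the 3 calls among 17 zinc and iron genes tested (median 0.20). Mt2 stood at 2.41, 6.14 and 2.48 CPM in Ctrl 2, 3 and 4 and 144, 77.8 and 139.6 CPM in Abx_4D 1, 3 and 4, and rose by 4.86 ± 0.39, adjusted p = 2.6e-07. Mt1 went from 2.41, 18.9 and 11.96 CPM to 158, 139 and 257 CPM and rose by 3.77 ± 0.37, adjusted p = 6.0e-06. Every Abx_4D value of the 2 genes was several times the highest Ctrl value. Tfrc rose by 1.62 ± 0.30 (0.0039), a call that ended with the stricter gate, which left 2 samples a group. The protease Prss23 had 2 counts in Ctrl and 79 in Abx_4D, a ratio of 46.5 per transcript (95% counting interval 12.5 to 390.9).

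Among 18 carriers of organic cations, amino acids and sugars 3 were higher, with a median of 0.36. Slc22a4, a carrier of ergothioneine and organic cations, went from 14.5, 4.72 and 3.3 CPM in Ctrl 2, 3 and 4 to 46.2, 33.9 and 25.3 CPM in Abx_4D 1, 3 and 4 and rose by 2.70 ± 0.59, adjusted p = 0.014 (lost without Ctrl 3 or Ctrl 4, at most 0.109). The glutamine carrier Slc1a5 rose by 1.45 ± 0.31 (0.01; 0.068 without Ctrl 4), and the glucose carrier Slc5a1 rose by 1.02 ± 0.27 (0.043; lost without any 1 sample other than Abx_4D 4 and with TMM scaling).

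Clock genes had 3 of 17 called, all higher, with a median of 0.30. Tef, a clock output factor, went from 7.24, 10.9 and 5.78 CPM to 44.4, 23.8 and 31.5 CPM and rose by 1.95 ± 0.42, adjusted p = 0.011 (0.093 without Ctrl 4). Per2, a core clock repressor, rose by 2.18 ± 0.53 (0.027; lost without Ctrl 3, Ctrl 4 or Abx_4D 1, at most 0.163), and Ciart, a clock repressor whose call ended without any 1 of the samples, rested on 1 and 12 counts, a ratio of 14.1 per transcript (95% counting interval 2.09 to 604). No label gives the time of day at which samples were taken.

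**Figure D3:**
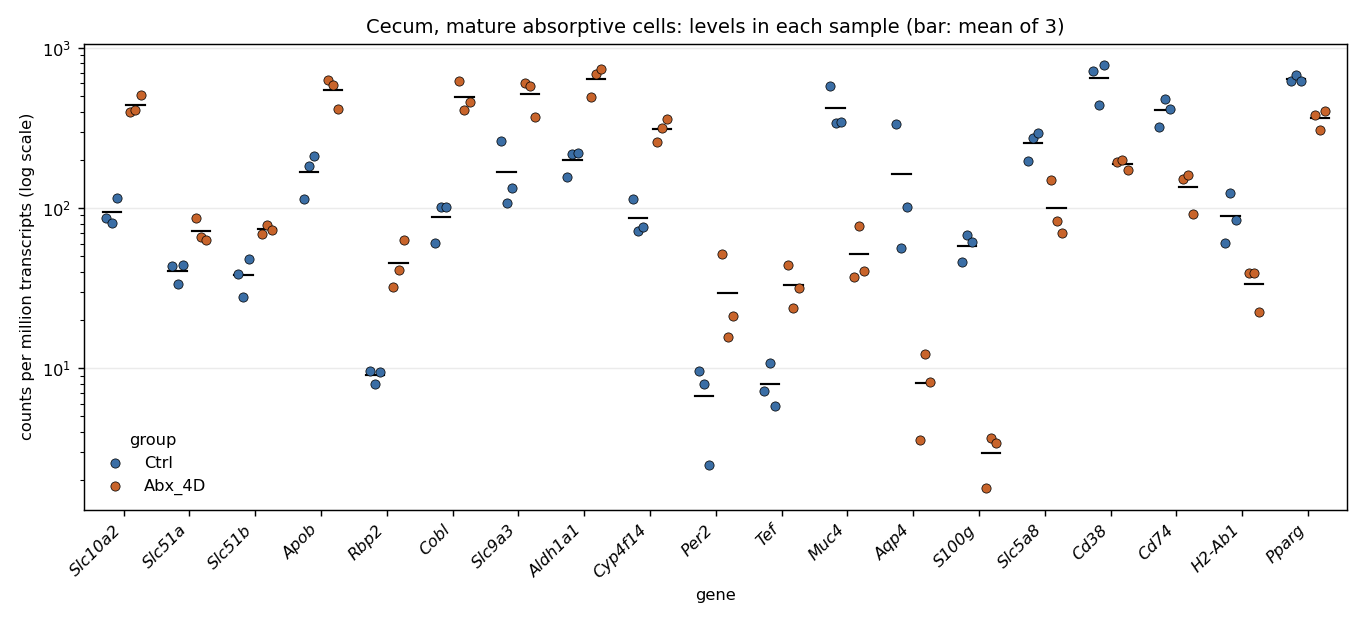
Level of 19 genes in each sample, mature absorptive cells (vertical axis, CPM on a log scale; 1 point per sample, blue for Ctrl 2, 3 and 4 and orange for Abx_4D 1, 3 and 4, bar for the mean of 3). The groups do not overlap for any gene drawn, and the first 11, from Slc10a2 to Tef, are higher in Abx_4D and the other 8 lower. The genes drawn were picked from those named, leaving out some with overlapping groups. Of all 10047 genes tested, 1541 had groups apart with Abx_4D above and 695 with Abx_4D below.

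Plet1 and B3galt5 fell in mature absorptive cells as in all cells together. Plet1 stood at 540.3, 199 and 460.0 CPM in Ctrl 2, 3 and 4 and 1.78, 5.495 and 5.48 CPM in Abx_4D 1, 3 and 4, and fell by 6.31 ± 0.42, adjusted p = 1.9e-08. B3galt5 went from 314, 122 and 317 CPM to 7.11, 17.9 and 18.5 CPM and fell by 3.95 ± 0.38, adjusted p = 4.7e-06. Among 20 glycan-building enzymes tested, 4 were lower and 2 higher, with a median of -0.03. Fut2 fell by 1.85 ± 0.24 (0.00019) and the mucin-type glycosylation starter Galnt3 fell by 1.31 ± 0.24 (0.0035), while Ugt8a, which makes galactosylceramide, rose by 2.14 ± 0.37 (0.0021). Il18 fell by 3.08 ± 0.42 (0.00026), from 188, 81.2 and 102 CPM to 17.8, 8.24 and 18.5 CPM.

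Muc4, a membrane-bound mucin, stood at 576, 338 and 345 CPM in Ctrl 2, 3 and 4 and 37.3, 77.4 and 40.4 CPM in Abx_4D 1, 3 and 4, and fell by 2.93 ± 0.37, adjusted p = 0.00012. Pparg, a nuclear receptor of maturing colonocytes, fell by 0.82 ± 0.19 (0.017; lost without Ctrl 3 or Abx_4D 3, at most 0.096). The other 4 mucins tested were not called, and the median of the 5 was -0.68. The water channel Aqp4 went from 333, 56.2 and 102 CPM to 3.55, 12.4 and 8.21 CPM and fell by 4.01 ± 0.55, adjusted p = 0.00027. S100g, an intracellular calcium buffer, went from 45.8, 67.5 and 61.05 CPM to 1.78, 3.66 and 3.42 CPM and fell by 4.16 ± 0.57, adjusted p = 0.00026. All 3 genes had groups apart and kept their call whichever sample was left out.

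The title's theme, nicotinic acid, was followed in 26 genes of its uptake and of NAD metabolism. In mature absorptive cells 19 were tested, 1 was higher and 2 lower, with a median of 0.11 (-0.01 with TMM scaling). Slc5a8, a sodium-coupled carrier of short-chain fatty acids and nicotinate, stood at 198, 272 and 294 CPM in Ctrl 2, 3 and 4 and 149, 83.3 and 69.8 CPM in Abx_4D 1, 3 and 4, and fell by 1.42 ± 0.26, adjusted p = 0.0038. Cd38, an ectoenzyme that consumes NAD, went from 721, 439.7 and 781 CPM to 194, 201 and 172 CPM and fell by 1.77 ± 0.23, adjusted p = 0.00012. Both had groups apart and kept their call whichever sample was left out. The NAD-making enzyme Nmnat3 rose by 1.36 ± 0.34 (0.028), a call lost without Ctrl 3, Abx_4D 1 or Abx_4D 3 (at most 0.193). In noncycling crypt and cycling cells none of the 18 tested in each was called (medians 0.06 and -0.02). Over all genes tested, 0.443% and 0.305% were called in those classes. Of 22 regional transcription factors tested in mature absorptive cells, Hoxa9 (-1.23, 0.027) and Hoxa10 (-1.26, 0.046) were lower, and both calls ended without any 1 sample other than Abx_4D 4 (at most 0.130 and 0.218) and without cells over 50000 transcripts.

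Genes of MHC class II, which presents peptides to T cells, fell in mature absorptive cells in 3 of 7 tested, with a median of -1.34. Cd74, the invariant chain, stood at 323, 483 and 415 CPM in Ctrl 2, 3 and 4 and 153, 162 and 91.7 CPM in Abx_4D 1, 3 and 4, and fell by 1.60 ± 0.26, adjusted p = 0.0011. H2-Ab1 fell by 1.48 ± 0.35 (0.022; lost without Ctrl 3, Ctrl 4 or Abx_4D 4, at most 0.178) and H2-Aa fell by 1.41 ± 0.35 (0.03), whose groups overlapped and whose call ended without any 1 sample other than Ctrl 2 (at most 0.253). In all cells, where 0.493% of the genes tested were called, none of the 7 was called (median -1.03), nor any of 17 MHC class I genes (median -0.27). Interferon genes were not called in all cells (0 of 33 antiviral effectors, 0 of 20 sensors and signalling genes and 0 of 14 interferon-induced GTPases; medians 0.13, -0.12 and -0.37). In mature absorptive cells the 33 effectors had a median of 0.76 against 0.15 over all genes tested, and 1 of them, Apol9b, was called (2.05, 0.019). Its call ended without Ctrl 3, Ctrl 4 or Abx_4D 3 (at most 0.122) and without cells over 50000 transcripts, where the median was 0.57.

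Whether a change differed between mature absorptive and cycling cells was tested directly in the 6 samples that held both classes, with each sample as a term (60 of 10687 genes at an adjusted p under 0.05, 0.561%). The log2 change was larger in mature absorptive cells for 38 genes and smaller for 22. Muc4 fell in mature absorptive cells and had a change of -0.60 in cycling cells, a difference of -2.38 (adjusted p = 0.00039). Aqp4 differed by -2.80 (0.011), Cd38 by -1.10 (0.013) and Plet1 by -2.72 (0.047), each with the more negative change in mature absorptive cells. In the other direction, Slc10a2 differed by 4.02 (0.00071), Cobl by 2.47 (0.00039), Apob by 1.61 (0.0018), Aldh1a1 by 1.69 (0.0042) and Mt1 by 1.87 (0.0028). Part of the difference of Slc10a2 came from an uncalled change of -1.575 in cycling cells (adjusted p = 0.46). The amino acid carrier Slc6a14 fell in cycling cells (-1.41) and had 0.19 in mature absorptive cells, a difference of 1.80 (0.013). Those of Cd38, Plet1 and Slc6a14 missed the threshold without Abx_4D 3 (0.095, 0.56 and 0.097), as did those of Cd38 and Plet1 without Ctrl 4 (0.070 and 0.076) and that of Plet1 without Abx_4D 1 (0.099). The count was 24 without Abx_4D 3 and 33 without Ctrl 3.

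**Figure D4:**
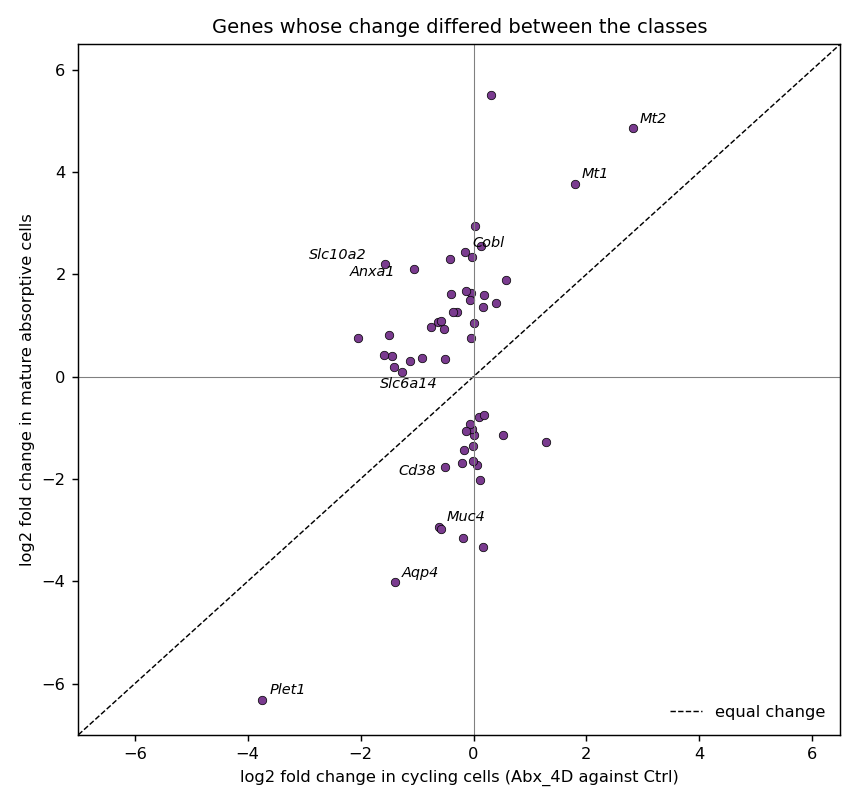
Genes whose change differed between classes (56 of the 60, those with more than 3 counts in each group of both classes). Horizontal and vertical axes are log2 fold changes, Abx_4D against Ctrl, in cycling and in mature absorptive cells, and the dashed line marks equal change; 35 genes lie above it and 21 below, with Plet1 and Aqp4 lowest and Mt2 among the highest.

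Goblet cells could be tested in 2 samples of each group (Ctrl 2 and 4, Abx_4D 3 and 4), and no gene was called (0% of 9747 by edgeR). At an unadjusted p under 0.05 there were 593 genes, and DESeq2 called 7. Tfrc had a change of 1.59 ± 0.35 and Plet1 of -3.57 ± 0.94 there, with groups apart but adjusted p-values of 0.24 and 0.56. With 2 samples a group, 2020 of the 9747 genes had groups apart with Abx_4D above and 1524 with Abx_4D below. Retnlb, a bactericidal goblet cell product, had 867 ± 241 CPM in Ctrl and 286 ± 161 in Abx_4D (SD, n = 2; adjusted p = 0.67).

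Shares of cells were compared by sample, bearing in mind that the sort fixes the balance of CD44-positive and CD44-negative cells. Mature absorptive cells made up 5.76, 10.9, 29.6 and 32.9% of cells in Ctrl 1 to 4 and 10.1, 8.90, 12.04 and 22.6% in Abx_4D 1 to 4, with overlapping groups. Noncycling crypt cells made up 25.5% ± 10.2 (SD, n = 4) in Ctrl and 31.6% ± 7.60 in Abx_4D, cycling cells 21.8% ± 6.26 and 19.5% ± 4.93, and goblet cells 6.65% ± 2.95 and 6.68% ± 1.93. Tuft cells, chemosensory cells that answer parasites and succinate, made up 1.05, 1.75, 0.662 and 0.748% in Ctrl 1 to 4 and 0.336, 0.524, 0.215 and 0.1795% in Abx_4D 1 to 4. All 4 Ctrl values were above all 4 Abx_4D values, but only 13 and 4 tuft cells were counted. An exact permutation test (two-sided) gave p = 0.0286, the lowest value possible with 4 samples a group, and 0.229 after adjustment over 8 classes. No share passed adjustment. Immune cells (27 and 15) and enteroendocrine cells (6 and 2) were too few for tests of genes.

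**Figure D5:**
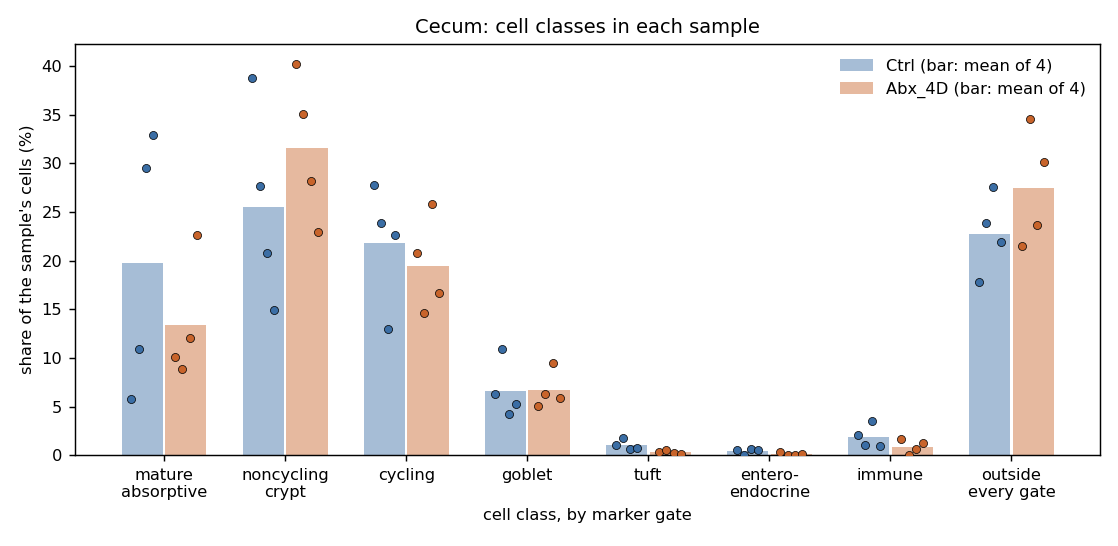
Share of each sample's cells in 8 classes set by marker gates (vertical axis, percent; points are samples, bars the mean of 4, blue for Ctrl and orange for Abx_4D). The groups overlap in every class drawn except tuft cells, where the 4 Ctrl samples (0.662 to 1.75%) lie above the 4 Abx_4D samples (0.1795 to 0.524%).

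Several groups showed no call in all cells, where 0.493% of the genes tested were called, so no call in lists this short says little about them. The groups were 27 oxidative phosphorylation genes (median 0.26), 30 genes of fatty acid oxidation (-0.20), 21 junction genes (-0.08), 26 cell cycle genes (0.06), 15 genes of Notch signalling and secretory fate (0.06) and 24 regional transcription factors (-0.06). Among 22 Wnt targets and stem cell genes Cd177 was the 1 called, and the median was -0.13. Within classes, the median of the oxidative phosphorylation genes was 0.445 in mature absorptive cells, against 0.149 over all genes tested. It was 0.414 against 0.057 in noncycling crypt cells and 0.764 against 0.049 in goblet cells. Of these genes only Sdha was called, higher in mature absorptive cells, and its call ended with TMM scaling.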

How the data were processed

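RNA was measured in single cells by split-pool barcoding (Parse Biosciences Evercode WT, per the labels' protocols). The authors deposited 1 matrix of whole-number transcript counts per gene and cell, not normalized, with a gene table (GRCm39) and a cell table. An aligner and a counting tool were not given in the sources used here. Seurat and the mouse build mm39 appear in the submitters' processing notes. The 8 deposited sublibraries each mix all conditions, so groups were taken from the sample names of the cell table. Members and gene lists were chosen with earlier results of these data known.

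Counts were summed per sample, over all cells or within classes gated on marker scores (log2 of 1 plus the count per 10000, averaged over markers), with thresholds set after seeing the pooled scores. The scores had thresholds of 1.4 for mature absorptive, 1.2 for goblet, 0.5 for enteroendocrine, 0.8 for tuft, 1 for stem, 0.8 for S phase, 1 for G2 and mitosis and 0.2 for immune markers. No doublet caller was run. The sums were scaled by library size, filtered with filterByExpr and tested with edgeR 4.0.16 (limma 3.58.1, R 4.3.3) in a fit of all 4 cecal groups, contrast Abx_4D minus Ctrl. Changes are log2 fold changes ± SE, and levels are CPM (counts scaled to 1000000 per sample). DESeq2 1.42.0, TMM scaling, no filter, other cell limits, a stricter gate (1.5 times each threshold) and leaving out samples or sublibraries were alternatives. The stricter gate also left fewer samples with enough cells, 2 Ctrl and 2 Abx_4D for mature absorptive cells and 4 and 3 for cycling cells. Shares were tested with SciPy 1.17.1. The test steps were tested on simulated data.

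Genes named were the called genes with groups apart and at least 20 CPM in the higher group (12 per direction in all cells, 8 in each class), called members of 33 lists (at most 4 per list) and, where a list had no call, its most abundant members. The ranking by change left out gate markers and ribosomal protein, mitochondrial and immunoglobulin genes. It also left out names with Gm, Rik, AC, AY or BC. Ribosomal protein genes such as Rplp0 and Rps3, and the elongation factor Eef2, were among those called higher in mature absorptive cells. Only part of these are described above, with no fixed rule for that choice. Among those left out are Grin3a, Spink1, Itpripl2, Creb3l3, Fry, Tpm2 and Tnip3 in mature absorptive cells and Ceacam10 in cycling cells. Others were chosen after their values were seen: Stat3, Casp4 and Duoxa2 in all cells, Lypd8, Nox1, Slc30a1, Mtf1, Fth1, Nr1h4, Sis, Fabp6, Retnlb, and genes given in a class where the rule did not name them.

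Same-numbered Ctrl and Abx_4D samples had correlations of deviations of 0.413, 0.00842, -0.0620 and 0.296, so the numbers were not taken to pair samples.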

Additional observations from a re-analysis of the deposited data

Results flagged for a closer look

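In 176 groups of 4 samples examined for the named genes and the class shares, 15 held 1 sample far from the other 3, where chance gives about 1 in 20 groups. All 15 were levels of named genes. In all cells, Reg3b was 21.0 CPM in Abx_4D 1 (0.452 to 1.70 in the other Abx_4D samples), Ly6a 1.65 CPM in Abx_4D 2 (6.89 to 7.08), Cd38 163 CPM in Abx_4D 2 (144.3 to 146.3), Aqp4 62.5 CPM in Abx_4D 1 (37.4 to 41.2) and B3gnt6 11.96 CPM in Ctrl 2 (1.47 to 2.22).

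In noncycling crypt cells, Tfrc was 327 CPM in Ctrl 2 (586 to 622) and 841 CPM in Abx_4D 2 (1488 to 1562), Vnn1 6.17 CPM in Abx_4D 3 (1.63 to 2.25) and Nos2 21.8 CPM in Ctrl 1 (64.1 to 72.2). In cycling cells Pcdh17 was 39.9 CPM in Ctrl 3 (29.7 to 31.2).

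In cells outside every gate, Mt2 was 243 CPM in Abx_4D 4 (100.8 to 123), Ldlrad3 23.5 CPM in Ctrl 2 (14.3 to 15.4), Reg3g 21.7 CPM in Abx_4D 1 (5.23 to 7.69), Wfdc2 8.69 CPM in Abx_4D 1 (1.99 to 2.99) and Reg3b 45.6 CPM in Abx_4D 1 (0 to 2.56).

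The change differed between mature absorptive and cycling cells, by the test of the difference itself, for 13 named genes. The log2 differences (mature absorptive minus cycling) were -2.38 for Muc4, -2.80 for Aqp4, -1.10 for Cd38 and -2.72 for Plet1. They were 2.47 for Cobl, 4.02 for Slc10a2, 1.61 for Apob, 1.87 for Mt1, 2.24 for Mt2, 1.69 for Aldh1a1, 2.70 for Aldh1a7, 3.34 for Anxa1 and 1.81 for Slc6a14. Slc10a2 and Anxa1 had uncalled changes of -1.575 and -1.047 in cycling cells, which are part of their differences. The differences of Muc4, Aqp4, Cobl, Slc10a2, Apob, Mt1 and Aldh1a1 kept their call whichever sample was left out. Mt2 lost it without Ctrl 4 (0.160), Aldh1a7 without Ctrl 3 or Abx_4D 3 (at most 0.143) and Anxa1 without Ctrl 3, Abx_4D 3 or Abx_4D 4 (at most 0.138).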

How the results depend on the processing

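Over 153 results for named genes and 3289 alternatives, none changed direction, 2779 stayed on the same side of the threshold and 510 lost the call. Alternatives in which a gene did not pass the filter or had no adjusted p-value were left out. They count neither among the 3289 nor as lost calls. Without any 1 sample, the calls that held were 9 of 24 in all cells, 31 of 59 in mature absorptive, 10 of 20 in noncycling crypt and 12 of 20 in cycling cells and 10 of 16 outside every gate. With only Ctrl and Abx_4D in the fit 22 calls ended, those of Tfrc, Reg3b and Cd177 in all cells among them.

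The count of called genes was 66 in all cells, 220 with DESeq2, 105 with no filter on low counts, 35 with only Ctrl and Abx_4D in the fit, 15 to 55 with 1 sample left out and 43 to 64 with 1 sublibrary left out. In mature absorptive cells it was 330, 549 with DESeq2, 701 with no filter, 150 to 270 without 1 sample and 212 to 340 without 1 sublibrary. In noncycling crypt cells it was 46, 155 with DESeq2, 272 with no filter, 17 with the stricter gate, 22 to 61 without 1 sample and 26 to 55 without 1 sublibrary. In cycling cells it was 32, 84 with DESeq2, 206 with no filter and 18 with the stricter gate. In goblet cells it was 0, 7 with DESeq2, 84 with no filter, 10 with only the 2 groups, 2 without cells over 50000 transcripts, 1 with the stricter gate, 0 to 2 without 1 sample and 0 to 1 without 1 sublibrary. Of these goblet fits, those without 1 sample, without cells over 50000 transcripts, with the stricter gate and without any of 5 sublibraries had 1 sample in 1 group, which is assumed to vary like the others. Outside every gate it was 28, 74 with DESeq2 and 156 with no filter. For the difference of the change it was 60, 235 with no filter and 24 to 74 without 1 sample. The replicate block gave 125, 356, 83, 51, 0 and 38 genes in all, mature absorptive, noncycling crypt, cycling, goblet and ungated cells.

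The uncalled difference in the share of cycling cells (-2.34 percentage points) turned to 0.166 with the stricter gate and 0.770 after thinning to 2000 transcripts. That of goblet cells (0.0280) turned to -0.171 with the stricter gate and ran from -0.901 to 1.44 without 1 sample. The cause of these changes was not tested.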
